A study of Phaffia rhodozyma with 6 samples.

Results

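Cytochrome P450 enzymes and the reductase that feeds them electrons were followed in *P. rhodozyma*, a basidiomycete yeast that makes the red carotenoid astaxanthin. Members were the genes whose annotation text holds the words cytochrome P450, in upper or lower case. The rule found 13 of 6249 genes, of which 12 were P450 genes and 1, unassigned_gene_9715, was the cytochrome P450 reductase. Astaxanthin synthase genes, which carry other descriptions, are not among them, and neither is any P450 gene annotated in other words. Genes are called by their identifiers in the table.

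RNA was measured in 2 groups of 3 libraries each, all from the wild-type strain AS2.1557 in YPD medium. The S group (S1 to S3) was grown with SA (salicylic acid, a defence hormone of plants) at 0.5 mg/L, and the C group (C1 to C3) without it. Cultures were kept at 22 °C for 96 h, and the time of RNA sampling was not found stated apart from this. Separate cultures are not named in the labels, and the p-values therefore reflect only how these libraries scatter, and that scatter may be technical.

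P450 enzymes hold a heme whose iron binds and splits molecular oxygen, and they place an oxygen atom on substrates such as sterols, fatty acids and foreign compounds. The electrons for this come from NADPH through cytochrome P450 reductase, a flavoprotein of the endoplasmic reticulum, and in some reactions also through cytochrome b5. In *P. rhodozyma* the last steps to astaxanthin are made by a P450 enzyme that depends on this reductase, and P450 enzymes also act in the synthesis of ergosterol, the membrane sterol of fungi.

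Expression is given as FPKM, fragments scaled by coding length and library size, so that levels can be set side by side between genes. Differences are S minus C on the scale of log2(FPKM + 0.1), tested with limma over the 6113 genes that reached a mean level of 0.5 FPKM, and a gene is called at a Benjamini-Hochberg adjusted p under 0.05. All 10 genes described by words for phytoene, lycopene or geranylgeranyl compounds, markers of a carotenoid-making yeast, were above 0 in every library, between 2.78 and 541 FPKM. The median FPKM of the tested genes was 29.2 to 32.0 in the S libraries and 23.6 to 26.4 in the C libraries, lowest in C3. The median log2 difference of all tested genes was 0.21, and −0.07 once each library was centred on its own median. Values scaled by library size show neither the amount of RNA per cell nor the number of cells. The cause of this shift was not tested.

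Of the 13 members, 12 passed the limit on low values. Of these 12, 1 was higher in S (8.33%), where 19.9% of all tested genes were higher, and 0 were lower, where 3.03% of all tested genes were lower. At an unadjusted p under 0.05, 3 members were higher, beside 32.4% of all tested genes, and 0 were lower, beside 5.27%. The 3 S libraries lay above all C libraries in 3 of 12 members (25%), beside 36.1% of all tested genes, and below them in 0, beside 7.48%. These 3 in both counts include unassigned_gene_10215, which passed the limit only through its S values, so neither count is read as support. The median log2 difference of the 12 members was 0.17, near that of all tested genes, and 11 of the 12 were above 0, beside 73.5% of all tested genes. With the libraries centred, 0 members were called in either direction, beside 7.26% of all tested genes higher and 15.3% lower, 4 of 12 lay above 0 and the median was −0.10. With quantile normalization 0 were called either, beside 6.61% higher and 8.47% lower. The called member was unassigned_gene_2391, a P450 of the CYP4/CYP19/CYP26 subfamilies.

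**Figure D1:**
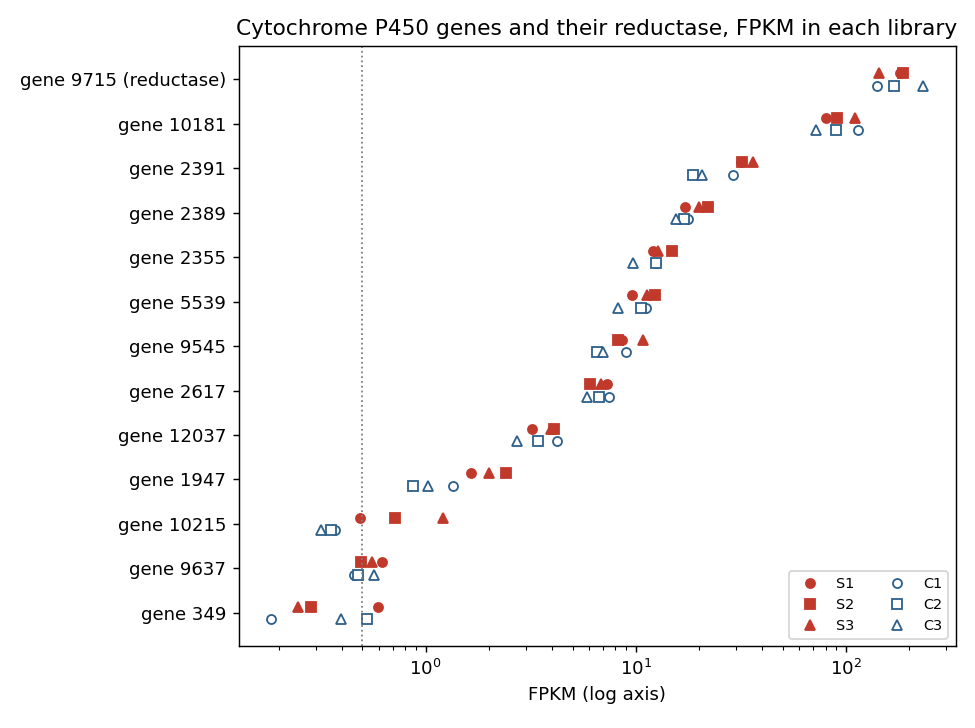
FPKM (log axis) of each of the 13 members (labelled gene and number) in each library, with filled red symbols for S1 to S3 and open blue symbols for C1 to C3, and the limit of 0.5 FPKM as a dotted line. The reductase and unassigned_gene_10181 stand above the rest in every library, and the S symbols lie wholly to the right of the C symbols in unassigned_gene_2391, unassigned_gene_1947 and unassigned_gene_10215.

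The reductase, unassigned_gene_9715, was the most abundant member. It had 180, 186 and 144 FPKM in S1 to S3 and 140, 170 and 232 FPKM in C1 to C3. The S range thus lay inside the C range, with C3 highest and C1 lowest. The means were 170 ± 23.0 FPKM in S and 181 ± 47.0 FPKM in C (SD, n = 3), and the mean level over all libraries ranked at percentile 89.6 of all 6249 genes. The log2 difference was −0.07 (SE 0.17, 95% interval −0.45 to 0.32), with an adjusted p of 0.814 in limma. This interval holds both a fall and a rise, and the difference turned to above 0 when C3 was left out, to 0.13. The gene has 3 exons and a coding length of 2238 bases on the minus strand.

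Levels differed widely between the members. The mean FPKM of the reductase was 473-fold that of unassigned_gene_349, with 2 members above 50 FPKM and 3 under 1 FPKM. In the order of levels, the ranges over the 6 libraries overlapped in 7 of 12 neighbouring pairs. They were apart between the reductase and unassigned_gene_10181, between unassigned_gene_10181 and unassigned_gene_2391, between unassigned_gene_2389 and unassigned_gene_2355, between unassigned_gene_2617 and unassigned_gene_12037, and between unassigned_gene_12037 and unassigned_gene_1947.

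The most abundant P450 gene was unassigned_gene_10181, the only member described by the CYP3/CYP5/CYP6/CYP9 subfamilies, a group that in animals holds many enzymes for foreign compounds. It had 80.4, 90.5 and 110 FPKM in S1 to S3 and 114, 89.4 and 72.3 FPKM in C1 to C3. Both ends of the range were C libraries, and the means of 93.8 ± 15.2 and 92.0 ± 21.1 FPKM (SD, n = 3) were close. The log2 difference was 0.04 (95% interval −0.34 to 0.42, limma adjusted p = 0.887). C1 and C3, the highest and lowest libraries of this gene, were the lowest and highest libraries of the reductase.

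unassigned_gene_10181 supplied about as much of the summed P450 FPKM as the other 11 P450 genes together. Its share of the sum was 46.4, 46.6 and 51.1% in S1 to S3 and 55.1, 53.6 and 50.1% in C1 to C3. The sum of the 12 P450 genes was 173, 194 and 216 FPKM in S1 to S3 and 208, 167 and 144 FPKM in C1 to C3. These ranges overlapped, with means of 194 ± 21.3 and 173 ± 32.1 FPKM (SD, n = 3). Without unassigned_gene_10181 the sums were 101 ± 6.85 FPKM in S and 80.9 ± 11.1 FPKM in C (SD, n = 3), and they overlapped only in that C1 at 93.2 FPKM lay just above S1 at 92.9 FPKM. These sums were not tested.

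The CYP4/CYP19/CYP26 subfamilies describe 8 members. Enzymes of the CYP4 type hydroxylate fatty acids in animals, and the members here are known only by this description. unassigned_gene_2391 had 31.8, 31.9 and 36.0 FPKM in S1 to S3 and 28.9, 18.6 and 20.6 FPKM in C1 to C3. All 3 S libraries lay above all C libraries, and C1 lay much closer to the S libraries than to C2 and C3. The mean rose from 22.7 ± 5.47 FPKM in C to 33.2 ± 2.42 FPKM in S (SD, n = 3), a log2 difference of 0.57 (SE 0.17, 95% interval 0.19 to 0.95) or 1.49-fold on the tested scale. The limma adjusted p was 0.0372. The call was lost with the libraries centred, with a difference of 0.30 and an adjusted p of 0.196, and likewise with quantile normalization (0.30, adjusted p = 0.207), without the limit on low values (adjusted p = 0.0509, where 17.4% of all genes were higher) and without the mean-variance trend (adjusted p = 0.0638). It was lost when S1, S2, S3, C2 or C3 was left out, with adjusted p-values of 0.0689, 0.0920, 0.130, 0.137 and 0.0836, and held only without C1 (0.76, adjusted p = 0.00463, where 21.9% of all tested genes were higher).

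unassigned_gene_2391 has a neighbour of the same family, unassigned_gene_2389, described only as a cytochrome P450. Both lie on the minus strand with 530 bases between them and no gene annotated in between. Their coding lengths of 1203 and 459 bases add to 1662 bases, inside the 1203 to 1809 bases of the 10 P450 genes with at least 1200 coding bases. unassigned_gene_2389 had 17.2, 22.1 and 19.9 FPKM in S1 to S3 and 17.7, 16.9 and 15.5 FPKM in C1 to C3. S1 lay below C1, so the groups overlapped, and the log2 difference of 0.24 (SE 0.15) was not called (limma adjusted p = 0.267). The ratio of unassigned_gene_2391 to unassigned_gene_2389 was 1.85, 1.44 and 1.81 in S1 to S3 and 1.64, 1.100 and 1.33 in C1 to C3, so the pair did not move in step. Joined as 1 gene by the length-weighted mean, an alternative chosen after seeing the data, the pair had a log2 difference of 0.50 and a limma adjusted p of 0.0439. Whether they are 1 gene or 2 was not tested.

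The next members of the CYP4/CYP19/CYP26 description in order of level did not pass the test. unassigned_gene_2355 had 12.0, 14.9 and 12.8 FPKM in S1 to S3 and 12.5, 12.5 and 9.65 FPKM in C1 to C3. unassigned_gene_5539 had 9.59, 12.4 and 11.3 FPKM in S1 to S3 and 11.1, 10.6 and 8.27 FPKM in C1 to C3. unassigned_gene_2617 had 7.27, 6.06 and 6.84 FPKM in S1 to S3 and 7.43, 6.68 and 5.86 FPKM in C1 to C3. In each of these 3 genes the groups overlapped and C3 was the lowest library. Their log2 differences were 0.20 (SE 0.17, adjusted p = 0.422), 0.15 (SE 0.18, adjusted p = 0.573) and 0.02 (SE 0.18, adjusted p = 0.952). With the libraries centred the same differences were −0.08, −0.13 and −0.26.

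unassigned_gene_12037, of the same description, was lower still, with 3.19, 4.08 and 3.95 FPKM in S1 to S3 and 4.19, 3.41 and 2.73 FPKM in C1 to C3. The groups overlapped across most of their range, with C1 highest and C3 lowest. The log2 difference was 0.13 (SE 0.23, adjusted p = 0.722).

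unassigned_gene_1947, also of this description, was a low gene whose groups did not overlap. It had 1.64, 2.41 and 2.002 FPKM in S1 to S3 and 1.34, 0.875 and 1.03 FPKM in C1 to C3. The lowest S library lay above the highest C library, and the means were 2.02 ± 0.385 and 1.08 ± 0.239 FPKM (SD, n = 3). The log2 difference was 0.84 (SE 0.29, 95% interval 0.19 to 1.49), and the limma adjusted p of 0.0624 did not pass. It passed without the mean-variance trend (adjusted p = 0.0293, where 15.7% of all tested genes were higher) and without C1 (adjusted p = 0.0462), and with the libraries centred it was 0.57 (adjusted p = 0.147).

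unassigned_gene_10215 is the only member described by the CYP2 subfamily, which in mammals holds liver enzymes for drugs and steroids. It had 0.487, 0.714 and 1.21 FPKM in S1 to S3 and 0.369, 0.356 and 0.317 FPKM in C1 to C3. All S libraries lay above all C libraries, and the 3 C libraries were tightly grouped (0.347 ± 0.0273 FPKM) while the S libraries were spread (0.804 ± 0.370 FPKM; SD, n = 3). The log2 difference of 0.94 was the largest in the family as fitted (SE 0.41, 95% interval 0.02 to 1.85), and its limma adjusted p was 0.125. It was 0.63 without S3, 0.66 with the libraries centred (adjusted p = 0.248) and 0.29 with quantile normalization. The gene passed the limit on low values only through the S group, its mean over the libraries being 0.576 FPKM. The study lists this gene under fatty acid metabolism as higher with SA, from its FPKM and also by RT-PCR, a separate assay of RNA. Its call rested on a fold change and a p-value that it does not describe as adjusted.

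The remaining P450 genes showed no called difference either. unassigned_gene_9545 is described as P450 monooxygenase pc-bph, a name that in the white-rot fungus *Phanerochaete chrysosporium* belongs to a benzoate hydroxylase. It had 8.56, 8.27 and 10.8 FPKM in S1 to S3 and 9.00, 6.53 and 6.99 FPKM in C1 to C3. S3 was highest and C1 lay above both other S libraries, and the log2 difference was 0.30 (SE 0.19, limma adjusted p = 0.286).

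The lowest members sat at the limit of 0.5 FPKM. unassigned_gene_9637, a CYP4/CYP19/CYP26 description on a fragment of 190 coding bases with 2 exons, is the only gene of its contig and lay just inside the limit, at a mean of 0.527 FPKM. It had 0.617, 0.492 and 0.554 FPKM in S1 to S3 and 0.455, 0.476 and 0.570 FPKM in C1 to C3, with overlap and a log2 difference of 0.12 (SE 0.36, adjusted p = 0.829). unassigned_gene_349, of the same description, lay just outside it, at a mean of 0.371 FPKM. It had 0.591, 0.284 and 0.247 FPKM in S1 to S3 and 0.184, 0.525 and 0.397 FPKM in C1 to C3, and in the fit without the limit its difference was 0.02 (adjusted p = 0.976). S1 and C2 were its highest libraries, and the groups overlapped. Read counts are not recoverable from these values. The study's text gives its valid reads as a range over the samples, and the precision at such levels was not worked out from it.

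**Figure D2:**
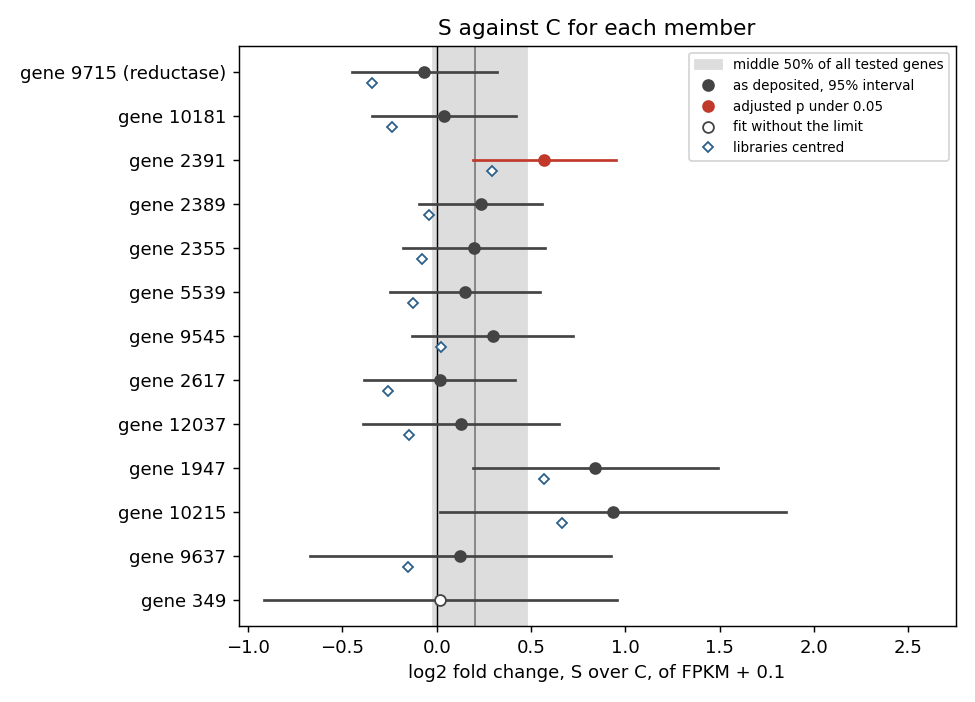
Log2 difference, S over C, of FPKM + 0.1 for each member with its 95% interval from limma (red, called; dark, not called; open circle, unassigned_gene_349 in the fit without the limit), beside the same value with libraries centred (blue diamonds), the middle 50% of all tested genes (grey band) and their median (grey line). The interval of unassigned_gene_2391 runs from 0.19 to 0.95. Every centred value lies left of the uncentred one, because centring takes the same amount off every difference.

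The libraries at the ends of the members' ranges were set beside those of all tested genes. Of the 12 tested members 12 had their lowest value in a C library, as did 79.6% of all tested genes, and 7 had it in C3, as did 49.9% of all tested genes. The highest value was in an S library in 8 of the 12, beside 66.2% of all tested genes, and the reductase was the only member highest in C3. C3 was also the library with the lowest median over all tested genes, at 23.6 FPKM, and its part in these counts was not tested.

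**Figure D3:**
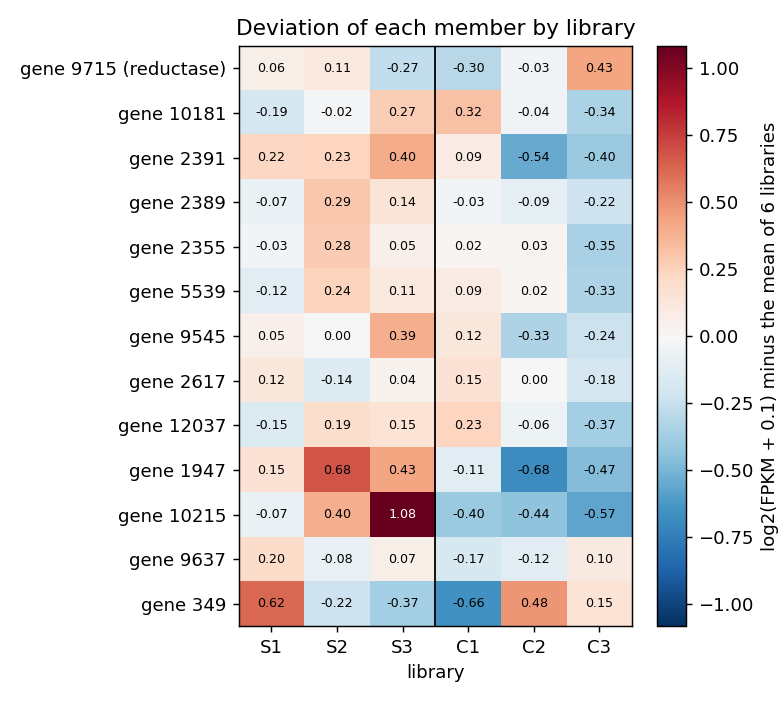
Deviation of each member's log2(FPKM + 0.1) in each library from its own mean over the 6 libraries (red above, blue below). C3 is blue for 10 of the P450 genes and red for the reductase at 0.43, and the largest deviation is that of unassigned_gene_10215 in S3, at 1.08.

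A few genes outside the family had nearly the same pattern over the 6 libraries, given as Pearson correlations of log2(FPKM + 0.1) without a test. Genes described as hypothetical or with no description were left out before ranking. Those given are the highest picked from all other tested genes over only 6 libraries, so a high value is no evidence of a link. Points share the library and its general shift. unassigned_gene_10215 was most like unassigned_gene_4935, a Myc-type basic helix-loop-helix protein (r = 0.997), unassigned_gene_7915, an uncharacterized conserved protein (r = 0.995), and unassigned_gene_11465, another basic helix-loop-helix protein (r = 0.995). unassigned_gene_2391 was most like unassigned_gene_3719, a phosphatase-associated protein (r = 0.994), unassigned_gene_4461, the Mediator subunit Med11 (r = 0.991), and unassigned_gene_1971, cytochrome oxidase assembly protein 1 (r = 0.990). The reductase was most like unassigned_gene_11943, an iron hydrogenase (r = 0.973), unassigned_gene_2541, the DNA repair protein RHP57 (r = 0.959), and unassigned_gene_177, a ded-1 helicase (r = 0.958).

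The P450 genes were rich in exons. The 10 P450 genes with at least 1200 coding bases had 6 to 19 exons with a median of 14, against a median of 7 over all genes, and 9 of the 12 P450 genes had 10 or more exons, as did 29.5% of all genes. The members lay on 8 contigs, 11 of 13 on the minus strand. unassigned_gene_1947, unassigned_gene_2355, unassigned_gene_2389, unassigned_gene_2391 and unassigned_gene_2617 shared 1 contig, which holds 13.6% of all genes, and unassigned_gene_2355 lies 49398 bases from unassigned_gene_2389. unassigned_gene_10181 and unassigned_gene_10215 shared another contig at a distance of 57806 bases. Their annotation gives 11 of the 13 members a GO term for monooxygenase activity, iron binding or heme binding.

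A KEGG entry for P450 fused to its reductase in a single protein (K14338) is carried by unassigned_gene_2391, unassigned_gene_2355, unassigned_gene_5539, unassigned_gene_2617 and unassigned_gene_10215, yet their coding lengths of 1203 to 1710 bases are all below the 2238 bases of the reductase alone. unassigned_gene_12037 and unassigned_gene_349 carry the entry for unspecific monooxygenases (K00493). These 7 genes make up the family's part of the 28 genes in the fatty acid degradation map.

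Genes next to the members were called about as often as genes in general. Of 22 neighbours outside the family, 5 were higher in S (22.7%, beside 19.9% of all tested genes), 0 were lower and 17 were not called. The called neighbours were hypothetical protein genes unassigned_gene_2393 (0.93), unassigned_gene_2619 (1.15) and unassigned_gene_10213 (0.52), unassigned_gene_5541 of the importin beta superfamily (0.33) and unassigned_gene_351, a t-SNARE of membrane fusion (0.53), given as log2 differences. unassigned_gene_2393 lies next to unassigned_gene_2391, and none of the 22 overlaps a member.

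Every P450 enzyme needs heme, and 8 genes of heme synthesis were measured. Of these, 3 were higher in S and 0 lower, beside 19.9% and 3.03% of all tested genes, and the median log2 difference was 0.32 beside 0.21. With the libraries centred 1 was higher and 0 lower, beside 7.26% and 15.3%. Ferrochelatase (unassigned_gene_3867), which places the iron into the ring in the last step, had 171, 133 and 169 FPKM in S1 to S3 and 81.9, 95.4 and 87.7 FPKM in C1 to C3. The groups were far apart, and it rose by 0.83 on the log2 scale (SE 0.12, limma adjusted p = 0.00264), also with the libraries centred (adjusted p = 0.0219) and without any 1 library (adjusted p at most 0.0137).

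The other called heme genes were less firm. Coproporphyrinogen III oxidase gene unassigned_gene_7451 rose by 0.54 (adjusted p = 0.0164), from 32.8 ± 3.46 to 47.5 ± 4.20 FPKM (SD, n = 3). Its call was lost by centring (adjusted p = 0.111), without S2 (0.0503) and without S3 (0.0777). Another gene of that description, unassigned_gene_5329, was named after its values were seen and was not called. It had 33.4, 47.7 and 53.9 FPKM in S1 to S3 and 21.5, 35.5 and 66.7 FPKM in C1 to C3. These groups overlapped, with a difference of 0.25 (adjusted p = 0.621). Porphobilinogen synthase (unassigned_gene_569), which joins 2 molecules of aminolevulinate, rose by 0.40 (adjusted p = 0.0372), from 46.0 ± 2.83 to 61.1 ± 6.88 FPKM (SD, n = 3). That call was lost by centring (adjusted p = 0.411), without S2 (0.110), without S3 (0.156) and without C2 (0.139). By contrast 5-aminolevulinate synthase (unassigned_gene_9507), which opens the pathway and was named after its values were seen, stood at 574 ± 14.2 FPKM in S and 600 ± 50.4 FPKM in C (SD, n = 3), with a difference of −0.06 (adjusted p = 0.623).

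Cytochrome b5 and its reductases can pass an electron to P450 enzymes. Of 6 such genes 1 was higher (16.7%) and 0 lower, beside 19.9% and 3.03% of all tested genes, the median log2 difference was 0.44, and 5 of 6 had all S libraries above all C libraries, beside 36.1% of all tested genes. unassigned_gene_1133 is described as cytochrome b5, but it has 2241 coding bases and carries the KEGG entry (K00326) of the reductases named below. It had 49.9, 52.7 and 58.3 FPKM in S1 to S3 and 31.2, 36.1 and 44.3 FPKM in C1 to C3, and it rose by 0.54 (SE 0.14, limma adjusted p = 0.0258). The groups did not overlap, but the call was lost by centring (adjusted p = 0.251), without S2 (0.0794), without S3 (0.103) and without C2 (0.0762). The NADH-cytochrome b5 reductases unassigned_gene_10057 and unassigned_gene_2521 had differences of 0.34 (adjusted p = 0.0536) and 0.56 (adjusted p = 0.0645). With centring these were 0.07 and 0.28. A more abundant one, unassigned_gene_725, was named after its values were seen. It had 331 ± 13.0 FPKM in S and 304 ± 47.1 FPKM in C (SD, n = 3), with overlap and a difference of 0.13 (limma adjusted p = 0.418). With the libraries centred 0 of the 6 genes were called, and their median was 0.17.

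NADPH, the electron source of the reductase, is made largely in the pentose phosphate pathway. The list of NADPH supply was filled by words of the descriptions and held 6 genes, all of that pathway. Isocitrate dehydrogenase, which the study names as a source of NADPH and reports as higher with SA, is not in it. Of the 6 listed genes 1 was higher and 0 lower, beside 19.9% and 3.03% of all tested genes, with a median log2 difference of −0.05. With the libraries centred 0 were higher and 4 lower, beside 7.26% and 15.3%, and with quantile normalization 0 were called. Transaldolase (unassigned_gene_2047), a sugar-shuffling enzyme of that pathway that makes no NADPH itself, rose by 0.28 (adjusted p = 0.0428), from 420 ± 28.9 to 510 ± 35.1 FPKM (SD, n = 3). Its difference was 0.00 with the libraries centred, and its call held only without C3 among the libraries left out in turn. Transketolase (unassigned_gene_3135) had a difference of −0.10 (adjusted p = 0.381) and was called lower with centring (adjusted p = 0.0454). 6-phosphogluconolactonase (unassigned_gene_4593), named after its values were seen, also had a difference of −0.10 (adjusted p = 0.550). It too was called lower with centring (adjusted p = 0.0346). A gene of 6-phosphogluconate dehydrogenase, which does make NADPH, is unassigned_gene_529. It had 148, 130 and 141 FPKM in S1 to S3 and 158, 161 and 160 FPKM in C1 to C3. All S libraries lay below all C libraries. The difference of −0.19 was not called as fitted (limma adjusted p = 0.143) but was with the libraries centred (adjusted p = 0.0178). Another gene of this KEGG entry (K00033), unassigned_gene_1905, was more abundant (mean 259.6 against 149.7 FPKM), and its groups overlapped. Its difference was 0.075 (adjusted p = 0.616), and it was not called with centring (adjusted p = 0.163). Glucose-6-phosphate 1-dehydrogenase (unassigned_gene_3195) had a difference of 0.003 (adjusted p = 0.983) and was called lower with centring (adjusted p = 0.048). Both genes were named after their values were seen.

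The words monooxygenase or hydroxylase together with flavin or FAD were found in the description of 1 gene outside the family, unassigned_gene_8189. Flavin monooxygenases described in other words are not covered. FAD-binding enzymes of this kind also place an oxygen atom on their substrates, without heme or a separate reductase. It had 39.4, 42.3 and 66.0 FPKM in S1 to S3 and 64.6, 93.1 and 107 FPKM in C1 to C3. S3 and C1 lay together between the other libraries, and the gene fell by 0.85 on the log2 scale (SE 0.22, limma adjusted p = 0.0234), also with the libraries centred (adjusted p = 0.0152). The call was lost without S1, S2, C2 or C3, with adjusted p-values of 0.0693, 0.0802, 0.0649 and 0.0794, and without the mean-variance trend (0.0594).

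The fatty acid degradation map, which takes in 7 members of the family, holds 21 other genes. Of these 1 was higher and 1 lower, beside 19.9% and 3.03% of all tested genes, with a median log2 difference of 0.17. With the libraries centred 0 were higher and 4 lower, beside 7.26% and 15.3%. unassigned_gene_7455, described by the single word alcohol, had 53.8, 49.5 and 216 FPKM in S1 to S3 and 40.0, 22.8 and 22.4 FPKM in C1 to C3. S3 stood far above S1 and S2, and the difference was 1.60 (SE 0.48, limma adjusted p = 0.0365) and 0.92 without S3 (adjusted p = 0.0449). The call was lost by centring (adjusted p = 0.0810), without C2 (0.0905) and without C3 (0.123).

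S3 also stood far above the other S libraries in 2 further genes of the map, which were named after their values were seen and were not called (adjusted p = 0.0588 and 0.0971). unassigned_gene_7463, likewise described as alcohol, had 32.7, 32.4 and 115 FPKM in S1 to S3, and aldehyde dehydrogenase unassigned_gene_11631 had 435, 435 and 1152 FPKM. Acetyl-C-acyltransferase (unassigned_gene_1265), an enzyme name used for the thiolase step of beta-oxidation, fell by 0.30 (adjusted p = 0.0394), from 231 ± 17.5 FPKM in C to 187 ± 8.69 FPKM in S (SD, n = 3). Its call held with the libraries centred (adjusted p = 0.00671) and was lost without S1, S2, S3, C1 or C2, with adjusted p-values between 0.0859 and 0.115.

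**Figure D4:**
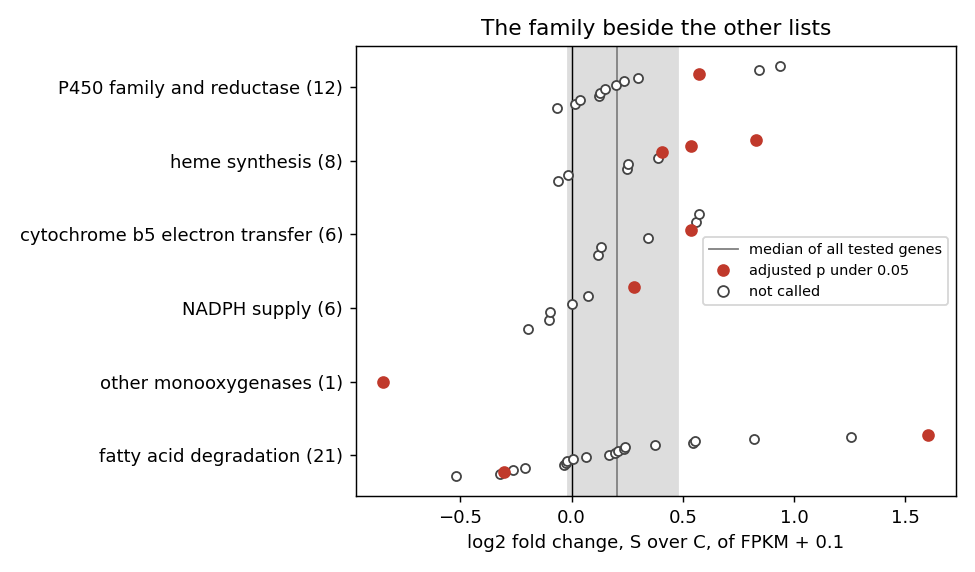
Log2 difference, S over C, of FPKM + 0.1 for every tested gene of the P450 family and of the other lists (red, called; open, not called; number of tested genes in parentheses), with the middle 50% of all tested genes as a grey band and their median as a line. The P450 family runs from −0.07 to 0.94 and heme synthesis from −0.06 to 0.83, and the flavin monooxygenase at −0.85 lies left of all other genes drawn.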

How the data were processed

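RNA-seq of 3 S and 3 C libraries was used, grouped by sample labels. The values are FPKM per gene that the authors computed with fastp, HISAT2 and StringTie (versions: not given in the sources used here). Deposited beside them were the authors' fold (a ratio), its log2, p-values and q-values, none of which was used, and 0 per-sample columns went unused. The study names 2 assemblies, and the build of the contigs was not given, so genes are placed by distances only.

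Tests ran on log2(FPKM + 0.1) in limma 3.58.1 (mean-variance trend, two-sided, Benjamini-Hochberg) in R 4.3.3 over 6113 genes whose mean reached 0.5 FPKM. The pseudocount shrinks fold changes of low genes. Low values were whole multiples of a read within 0.05 in at best 16.6 to 23.6% per library, where chance gives 10%. Counts were therefore not recovered. The study's text gives its valid reads per sample as a range, which was not used here. Tables were made in Python 3.11.15 and figures with matplotlib 3.10.9.

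The members and lists were chosen with earlier results of these data known. All members are named. Of each other list, the called genes with the smallest adjusted p are named, up to 4, with up to 2 more where fewer than 2 were called. The 2 genes that the rule names for removal did not hold the words. The alternatives were pseudocounts of 1 and 0.01, no limit on low values or one of 1 FPKM, libraries centred on the median, quantile normalization, a replicate block, no mean-variance trend, leaving out each library, and unassigned_gene_2389 and unassigned_gene_2391 joined.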

Additional observations from a re-analysis of the deposited data

How the results depend on the processing

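The family count of 1 higher gene became 0 without the limit on low values, with centring and with quantile normalization, and ranged from 0 to 2 when 1 library was left out. unassigned_gene_2391 was 0.57 without the limit and without the trend, 0.30 with centring and 0.30 with quantile normalization, and 0.44 to 0.76 with 1 library left out. unassigned_gene_1947 was 0.84 without the trend, where it passed, and 0.71 to 0.99 with 1 library left out. Under centring and quantile normalization, in that order, the difference turned below 0 for unassigned_gene_10181 (−0.24, −0.12), unassigned_gene_2389 (−0.040, −0.11), unassigned_gene_2355 (−0.076, −0.16), unassigned_gene_5539 (−0.13, −0.22), unassigned_gene_2617 (−0.26, −0.34), unassigned_gene_12037 (−0.15, −0.29) and unassigned_gene_9637 (−0.15, −0.47), and under quantile normalization for unassigned_gene_9545 (−0.066). With 1 library left out, the range was −0.23 to 0.13 for unassigned_gene_9715, −0.12 to 0.21 for unassigned_gene_10181, −0.070 to 0.10 for unassigned_gene_2617 and −0.024 to 0.28 for unassigned_gene_12037. Centring takes the same amount off every difference, so positive ones smaller than that amount had to turn below 0. The cause of the other changes was not tested.

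Called genes of the other lists numbered 8, 3 without the trend and 2 to 11 with 1 library left out. Their single calls held in 69 alternative fits and were lost in 43. Quantile normalization ended those of unassigned_gene_7451, unassigned_gene_569, unassigned_gene_1133, unassigned_gene_2047 and unassigned_gene_7455 (adjusted p = 0.0950, 0.244, 0.169, 0.0526 and 0.104), and the fit without the limit that of unassigned_gene_7455 (0.0608). Over all tested genes, 1218 were higher and 185 lower. These became 444 and 937 with centring, 404 and 518 with quantile normalization, and 494 to 1341 and 66 to 293 with 1 library left out, and the lower count was 80 without the trend. unassigned_gene_349 was tested only without the limit, and unassigned_gene_10215 and 9637 were not tested at a limit of 1 FPKM. Read counts were not recovered, and no counting error was worked out for these low genes.

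With the replicate number as a block, 1051 genes were higher and 151 lower, the family count stayed at 1 (unassigned_gene_2391, adjusted p = 0.0437), and the calls of unassigned_gene_569 (0.0509) and unassigned_gene_1265 (0.0549) were lost. Deviations of same-numbered libraries correlated at −0.017, 0.16 and −0.0034, so the numbers were not taken to pair the libraries.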

Other observations

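Heme-binding partners of P450 enzymes are known outside the lists above. Dap1 of budding yeast and its mammalian relatives, the progesterone receptor membrane components, bind heme and act with P450 enzymes of sterol synthesis. The annotation gives 2 genes the description of a putative steroid membrane receptor of that family, Hpr6.6/25-Dx, and both were named after their values were seen. unassigned_gene_2573 had 25.8, 21.1 and 23.1 FPKM in S1 to S3 and 18.1, 19.1 and 18.1 FPKM in C1 to C3. All S libraries lay above all C libraries, and the log2 difference of 0.33 (SE 0.13) was not called (limma adjusted p = 0.0942) and was 0.06 with the libraries centred. unassigned_gene_357 had 20.4 ± 2.49 FPKM in S and 19.4 ± 3.16 FPKM in C (SD, n = 3), and its groups overlapped, with a difference of 0.07 (limma adjusted p = 0.782).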
